A study of Mus musculus with 610 samples.

Results

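The E protein transcription factors and their inhibitor Id2 were followed by 4 assays, Tcf3 E12, Tcf3 E47, Tcf12 and Id2, out of the 48 assays read in each of 610 single cells sorted from the mouse thymus. The 4 assays, which report on 3 genes, were chosen by family and function, with earlier results of these data known. The study profiled progenitors of gamma delta T cells that make interleukin 17, by quantitative PCR on complementary DNA of single captured cells.

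Each reaction gave a threshold cycle (Ct), the PCR cycle at which product was seen, with 24 as its highest value. Detection of an assay meant a Ct below 24, and its level was 24 minus Ct, in cycles, so that an undetected assay has level 0. Cells fell into 4 groups and 8 capture runs. B6 DN1d cells were C57BL/6J thymocytes of postnatal days 7 to 10, sorted as live, TCRd-, Lin-, CD44+, CD25-, CD24+ and cKit-, with 72, 70 and 81 cells captured in runs 1, 2 and 3. The Tcrd-/- DN1d group carried the B6.129P2-Tcrd tm1Mom allele, a targeted T cell receptor delta gene, and passed the same gate at the same age in 1 run of 86 cells. Rag1-/- cKit- cells carried the B6.129S7-Rag1 tm1Mom allele, which removes a subunit of the recombinase, came from days 0 to 2, were sorted without a CD24 gate as TCRd-, Lin-, CD44+, CD25- and cKit-, and had 89, 52 and 82 cells in runs 1, 2 and 3. The B6 DN2 group was made of C57BL/6J thymocytes of days 7 to 10 sorted as TCRd-, Lin-, CD44+, CD25+ and cKit+, in 1 run of 78 cells. Rag1-/- cKit- cells thus differ from B6 DN1d cells in genotype, age and gate together, and these cannot be told apart. Since each run held a single group, the effects of run and group cannot be told apart either. The labels do not say which animals a run came from, so a p-value here speaks of run-to-run spread, part of which may be technical. A group with 1 run was taken to have the spread of the groups with 3.

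E proteins are basic helix-loop-helix factors that bind DNA as dimers at the E-box, a short motif found in many enhancers and promoters. Tcf3 makes 2 forms, E12 and E47, by alternative splicing of the exon that codes for the DNA-binding domain, and Tcf12 encodes the related protein HEB. Id2 has the dimerisation domain without the basic region, so that an E protein paired with Id2 no longer binds DNA. In the thymus, E proteins are known for their part in T lineage commitment and in the choice between alpha beta and gamma delta fates, and Id2 for its part in innate lymphoid cells.

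In the RefSeq annotation of GRCm38.p6, Tcf3 lies on the minus strand of chromosome 10 at chr10:80409541-80433976, Tcf12 on the minus strand at chr9:71844252-72111893 and Id2 on the minus strand at chr12:25093799-25096092. Upstream sequence is shown because the E-box is the motif that Id2 keeps E proteins from. It is the part of the 250 bases before the first listed start that lies outside the gene's own interval, chr9:72111894-72112069 for Tcf12, which has 3 listed starts, and chr12:25096093-25096342 for Id2, from RefSeq, 5′ to 3′ along the gene, with each match to CANNTG, a motif that reads the same on both strands, in capitals. For Tcf3, which has 1 listed start, this window lies wholly inside the gene's interval and is not shown.
Tcf12: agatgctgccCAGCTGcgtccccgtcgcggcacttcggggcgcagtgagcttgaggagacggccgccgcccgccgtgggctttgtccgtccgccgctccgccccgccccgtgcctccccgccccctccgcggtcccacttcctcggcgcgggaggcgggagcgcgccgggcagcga
Id2: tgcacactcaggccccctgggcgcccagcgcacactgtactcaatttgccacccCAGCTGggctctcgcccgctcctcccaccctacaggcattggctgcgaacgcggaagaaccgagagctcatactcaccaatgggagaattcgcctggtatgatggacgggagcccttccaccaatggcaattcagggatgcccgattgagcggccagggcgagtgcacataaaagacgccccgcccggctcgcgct
Each held 1 match, CAGCTG. At least 1 match stood in 54.7% of 32851 promoter windows at the length shown for Tcf12 and in 66.2% at that for Id2, so a match is common and describes letters only.

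By detection, depth was even for the control assay and uneven for the panel. Gapdh, a glycolytic enzyme used as reference, was detected in every cell, with run mean levels between 14.18 and 15.64 cycles. The mean number of assays detected per cell was 19.2 to 20.3 in the B6 DN1d runs, 21.6 to 24.3 in the Rag1-/- runs, 30.9 for Tcrd-/- and 28.5 for DN2 cells. Vg2-Jg1, a junction of the T cell receptor gamma locus that needs recombination, was found in 92 of 223 B6 DN1d and 67 of 86 Tcrd-/- cells and in none of 223 Rag1-/- or 78 DN2 cells (upper limits from a count of 0, 1.35% and 3.85%). T progenitor markers were present in all groups, with 2.35 to 3.69 of 4 markers (Tcf7, Gata3, Notch1 and Bcl11b) detected per cell in the DN1d runs, 3.27 to 3.47 in the Rag1-/- runs and 3.87 in the DN2 run. Of 4 innate lymphoid markers (Id2 itself, Zbtb16, Il7r and Nfil3), the DN1d runs had 1.23 to 1.51 per cell. The Rag1-/- runs had 2.81 to 3.24 and the DN2 run 2.5. Of 7 markers of interleukin 17 producing gamma delta T cells, the DN1d runs had 2.69 to 5.85 per cell. The Rag1-/- runs had 2.85 to 3.34 and the DN2 run 2.76.

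E47 was partial in B6 DN1d cells and complete in DN2 cells. It was detected in 27.8%, 32.9% and 33.3% of cells in B6 DN1d runs 1, 2 and 3, in 61.8%, 48.1% and 65.9% in Rag1-/- runs 1, 2 and 3, in 80.2% of Tcrd-/- cells and in 100% of DN2 cells (78 of 78, exact 95% interval from 95.4%). Each B6 DN1d run lay below every run of the other groups, and all Rag1-/- runs lay below the Tcrd-/- and DN2 runs. Against B6 DN1d, at 31.3% ± 3.08 (SD, n = 3 runs), the limma estimate on the logit scale (natural log odds of detection) was 5.83 ± 0.49 (SE) higher in DN2 cells (adjusted p = 1.61e-09), 2.16 ± 0.49 higher in Tcrd-/- cells (adjusted p = 0.000859) and 1.13 ± 0.34 higher in Rag1-/- cells (adjusted p = 0.00686). The Rag1-/- difference was 0.98 without Rag1-/- run 3 (adjusted p = 0.0572) and 0.97 over cells with 20 to 30 other assays detected (adjusted p = 0.0521), and so no longer passed.

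Tcf12, the HEB gene, followed the same order of groups. It was detected in 50%, 40% and 48.1% of cells in B6 DN1d runs 1, 2 and 3, in 79.8%, 69.2% and 84.1% in Rag1-/- runs 1, 2 and 3, in 91.9% of Tcrd-/- cells and in 96.2% of DN2 cells. No B6 DN1d run overlapped any other group, while the Tcrd-/- and DN2 runs lay close to each other. Compared with B6 DN1d, Tcf12 detection was higher by 3.23 ± 0.50 (SE) on the logit scale in DN2 cells (limma, adjusted p = 6.5e-06), by 2.52 ± 0.50 in Tcrd-/- cells (adjusted p = 0.000278) and by 1.42 ± 0.35 in Rag1-/- cells (adjusted p = 0.00146). Over cells with 20 to 30 other assays detected, the Rag1-/- difference was 0.81 ± 0.44 and did not pass (adjusted p = 0.114).

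E12 was the member whose replicate runs differed most. It was detected in 41.7%, 41.4% and 86.4% of cells in B6 DN1d runs 1, 2 and 3, in 69.7%, 46.2% and 75.6% in Rag1-/- runs 1, 2 and 3, in 83.7% of Tcrd-/- cells and in 93.6% of DN2 cells. B6 DN1d run 3 stood above its 2 replicates, above all Rag1-/- runs and above the Tcrd-/- run, so that the groups overlapped. The range over the B6 DN1d runs was 45 percentage points, against a median of 8.18 over 47 assays, and only Bcl11b, a T lineage transcription factor, had a wider one, with 90.3%, 85.7% and 37% in runs 1, 2 and 3. Over the Rag1-/- runs E12 ranged over 29.5 points, against a median of 8.17. In the B6 DN1d runs E47, from the same gene, ranged over 5.56 points, Tcf12 over 10.0 and Id2 over 22.5 (rank 4 of 47). Run 3 also had the fewest late reactions of E12 in this group: 18.6% of its detected E12 reactions had a Ct of 20 or later, against 46.7% and 48.3% in runs 1 and 2. Whether the assay, the run or the cells set this difference was not tested.

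The E12 comparisons changed with that run. With all runs, E12 detection was higher in DN2 than in B6 DN1d cells by 2.21 ± 0.69 (SE) on the logit scale (limma, adjusted p = 0.00707), and by 2.93 ± 0.52 (adjusted p = 2.05e-07) without B6 DN1d run 3. Without Rag1-/- run 1 or run 2 the difference stayed at 2.21, with an SE of 0.99 or 0.86 from the spread shared by all runs, and did not pass (adjusted p = 0.0949 and 0.0538). The Tcrd-/- difference was 1.23 ± 0.69 (95% interval -0.21 to 2.67, adjusted p = 0.147) with all runs and 1.95 ± 0.52 (adjusted p = 0.000666) without B6 DN1d run 3. The Rag1-/- difference was 0.21 ± 0.49 (95% interval -0.81 to 1.24, adjusted p = 0.744) with all runs and 0.93 ± 0.39 (adjusted p = 0.0268) without run 3. Without B6 DN1d run 1 or run 2 it was -0.14 or -0.15, and without Rag1-/- run 3 it was -0.05.

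**Figure D1:**
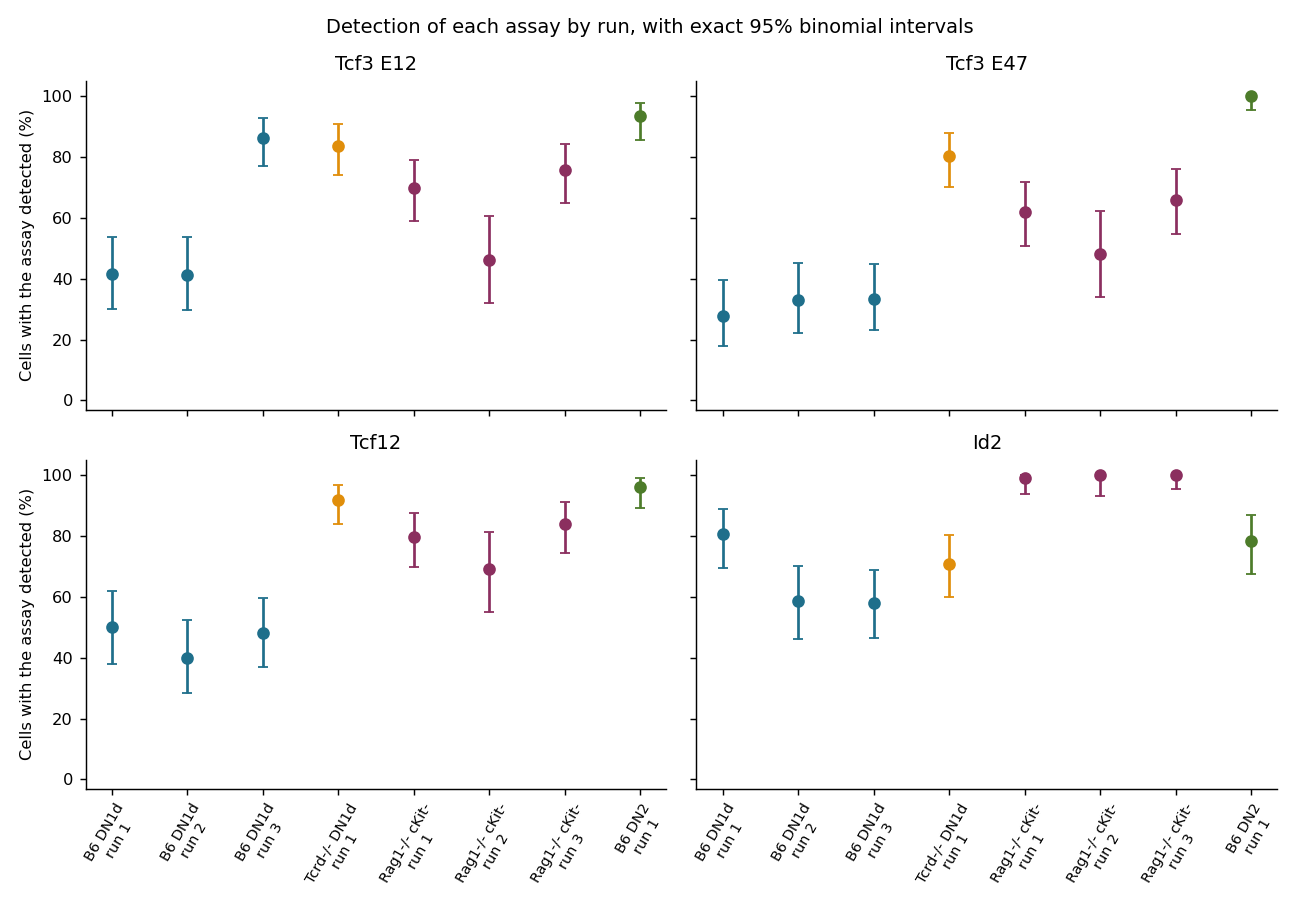
Share of cells (%) with each assay detected, by run, with exact 95% binomial intervals that cover counting error only. E47 and Tcf12 are lowest in the 3 B6 DN1d runs, Id2 is at 98.9% or more in the 3 Rag1-/- runs, and E12 in B6 DN1d run 3 stands at 86.4% against 41.7% and 41.4% in runs 1 and 2.

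Id2 showed another pattern: it was near complete in Rag1-/- cells and partial in the other groups. It was detected in 98.9%, 100% and 100% of cells in Rag1-/- runs 1, 2 and 3, in 80.6%, 58.6% and 58% in B6 DN1d runs 1, 2 and 3, in 70.9% of Tcrd-/- cells and in 78.2% of DN2 cells. The Rag1-/- runs lay above every other run, and the Tcrd-/- and DN2 runs lay within the range of the B6 DN1d runs. Id2 detection was higher in Rag1-/- than in B6 DN1d cells by 3.93 ± 0.39 (SE) on the logit scale (limma, adjusted p = 3.97e-08). The DN2 difference from B6 DN1d was 0.57 (95% interval -0.57 to 1.71, adjusted p = 0.355) and the Tcrd-/- difference 0.20 (95% interval -0.95 to 1.34, adjusted p = 0.828). These intervals leave room for a shift in either direction.

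The counts of members past the threshold were near those of the whole panel. In DN2 against B6 DN1d, 3 of the 4 members rose, where 66% of the 47 assays tested were called in either direction. In Tcrd-/- against B6 DN1d, 2 of 4 rose, against 55.3% of assays called. In Rag1-/- against B6 DN1d, 3 of 4 rose, against 59.6% of assays called. The members' median logit difference was 2.72, 1.69 and 1.27 in these comparisons, beside 0.99, 1.34 and 0.41 over all 47 assays. The median assay was thus also detected more often in each of the 3 groups.

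The other pairs of groups set the order of the members. DN2 cells had more E47 (4.71 ± 0.49 (SE), adjusted p = 2.84e-08), more Tcf12 (1.81 ± 0.50, adjusted p = 0.00352), more E12 (2.00 ± 0.69, adjusted p = 0.0178) and less Id2 (-3.36 ± 0.55, adjusted p = 1.53e-05) detection than Rag1-/- cells, in a limma comparison that called 57.4% of assays. The E12 call was lost without Rag1-/- run 1 (adjusted p = 0.146) or run 2 (adjusted p = 0.182), and the Tcf12 call over cells with 20 to 30 other assays (adjusted p = 0.0661). Between Tcrd-/- and Rag1-/- cells, Id2 alone of the members passed, lower in Tcrd-/- cells by 3.73 ± 0.55, with 57.4% of assays called. Tcf12 there differed by 1.10 ± 0.50 (adjusted p = 0.064) and E47 by 1.03 ± 0.49 (adjusted p = 0.076). Between the single runs of Tcrd-/- and DN2 cells, E47 alone passed, at -3.68 ± 0.60 (adjusted p = 1.93e-05), with 68.1% of assays called and with the spread taken wholly from the other groups. For E47 the order was therefore B6 DN1d, Rag1-/-, Tcrd-/- and DN2, in which the neighbours Rag1-/- and Tcrd-/- did not differ beyond the spread. For Tcf12 the order of detection was the same, and Tcrd-/- and DN2 did not differ beyond the spread either. By mean level, defined above, Tcf12 did pass between Tcrd-/- and Rag1-/- cells, at 2.81 ± 0.84 (SE) cycles (limma, adjusted p = 0.038), and by detection it passed without B6 DN1d run 3 (adjusted p = 0.0448).

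Levels of E47 differed between groups over all cells. In the DN2 run every E47 reaction was detected, with a lowest level of 4.55, a median of 10.03 and a highest of 12.86 cycles. In the B6 DN1d runs, the detected E47 reactions alone averaged 8.26, 6.72 and 8.55 cycles, and in the Rag1-/- runs 8.58, 8.45 and 8.80. The detected levels of B6 DN1d and Rag1-/- cells thus overlapped, while their shares of detected cells did not. The DN2 mean of 10.08 cycles was above the detected mean of every other run, and 51.3% of DN2 cells had a Ct below 14, against 1.39%, 0% and 3.7% in B6 DN1d runs 1, 2 and 3.

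Over all cells of a run, the mean E47 level was 2.29, 2.21 and 2.85 cycles in B6 DN1d runs 1, 2 and 3, 5.30, 4.06 and 5.79 in Rag1-/- runs, 7.0 in Tcrd-/- cells and 10.08 in DN2 cells. The B6 DN1d mean was below every other run. It was lower than DN2 by 7.63 ± 0.72 (SE) cycles (limma, adjusted p = 0.000682), than Tcrd-/- by 4.55 ± 0.72 (adjusted p = 0.0057) and than Rag1-/- by 2.60 ± 0.51 (adjusted p = 0.0102). Over detected cells alone, none of these passed: the differences were 2.24, 0.88 and 0.77 cycles (adjusted p = 0.0635, 0.485 and 0.431). With the median over cells in place of the mean the differences were larger, at 10.03, 8.58 and 5.10 cycles, with larger errors (SE 3.48, 3.48 and 2.46), and did not pass (adjusted p = 0.128, 0.111 and 0.306).

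Tcf12 behaved alike on the level scale. Its run means were 4.68, 3.44 and 4.80 cycles in B6 DN1d runs 1, 2 and 3, 8.11, 6.70 and 8.22 in Rag1-/- runs, 10.49 in Tcrd-/- cells and 10.09 in DN2 cells. The groups did not overlap with B6 DN1d, and the Tcrd-/- run was the highest. The differences from B6 DN1d were 5.78 ± 0.84 (SE) cycles for DN2 (limma, adjusted p = 0.00307), 6.18 ± 0.84 for Tcrd-/- (adjusted p = 0.004) and 3.37 ± 0.60 for Rag1-/- (adjusted p = 0.00725). In detected cells alone they were 1.18, 2.11 and 0.56 cycles and did not pass (adjusted p = 0.343, 0.099 and 0.567), and over cells with 20 to 30 other assays they were 3.32, 3.97 and 1.66 cycles and did not pass (adjusted p = 0.0808, 0.0883 and 0.181).

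Id2 differed in level also among the cells that had it. Its run means were 12.17, 10.97 and 11.19 cycles in Rag1-/- runs 1, 2 and 3, 4.16, 3.19 and 3.77 in B6 DN1d runs, 3.70 in Tcrd-/- cells and 3.81 in DN2 cells. The Rag1-/- runs stood far above all others, which lay within 1 cycle of each other. The difference between Rag1-/- and B6 DN1d cells was 7.74 ± 0.43 (SE) cycles over all cells (limma, adjusted p = 0.000234) and 5.79 cycles over detected cells alone (adjusted p = 9.48e-08). Reactions with a Ct below 14 made up 93.3%, 78.8% and 84.1% of Rag1-/- cells and 11.1%, 1.43% and 7.41% of B6 DN1d cells, and in B6 DN1d runs 43.1%, 34.1% and 23.4% of the detected Id2 reactions had a Ct of 20 or later. Id2 level was 0.10 cycles higher in DN2 (95% interval -1.46 to 1.66) and 0.01 cycles lower in Tcrd-/- cells (95% interval -1.57 to 1.55) than in B6 DN1d cells.

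E12 levels again followed the run. The means were 1.79, 1.52 and 5.45 cycles in B6 DN1d runs 1, 2 and 3, 4.69, 2.34 and 3.04 in Rag1-/- runs, 5.23 in Tcrd-/- cells and 7.22 in DN2 cells. Run 3 of B6 DN1d was again the high one, and the groups overlapped. With all runs no E12 difference from B6 DN1d passed, at 4.29 ± 1.84 (SE) cycles for DN2 (limma, adjusted p = 0.0958), 2.31 ± 1.84 for Tcrd-/- (adjusted p = 0.378) and 0.44 ± 1.30 for Rag1-/- cells (adjusted p = 0.783). Without run 3 the first 2 were 5.56 (adjusted p = 0.0171) and 3.57 cycles (adjusted p = 0.0484). By level, 2 of 4 members rose in DN2, 2 in Tcrd-/- and 3 in Rag1-/- cells, where 57.4%, 61.7% and 55.3% of the 47 assays were called.

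**Figure D2:**
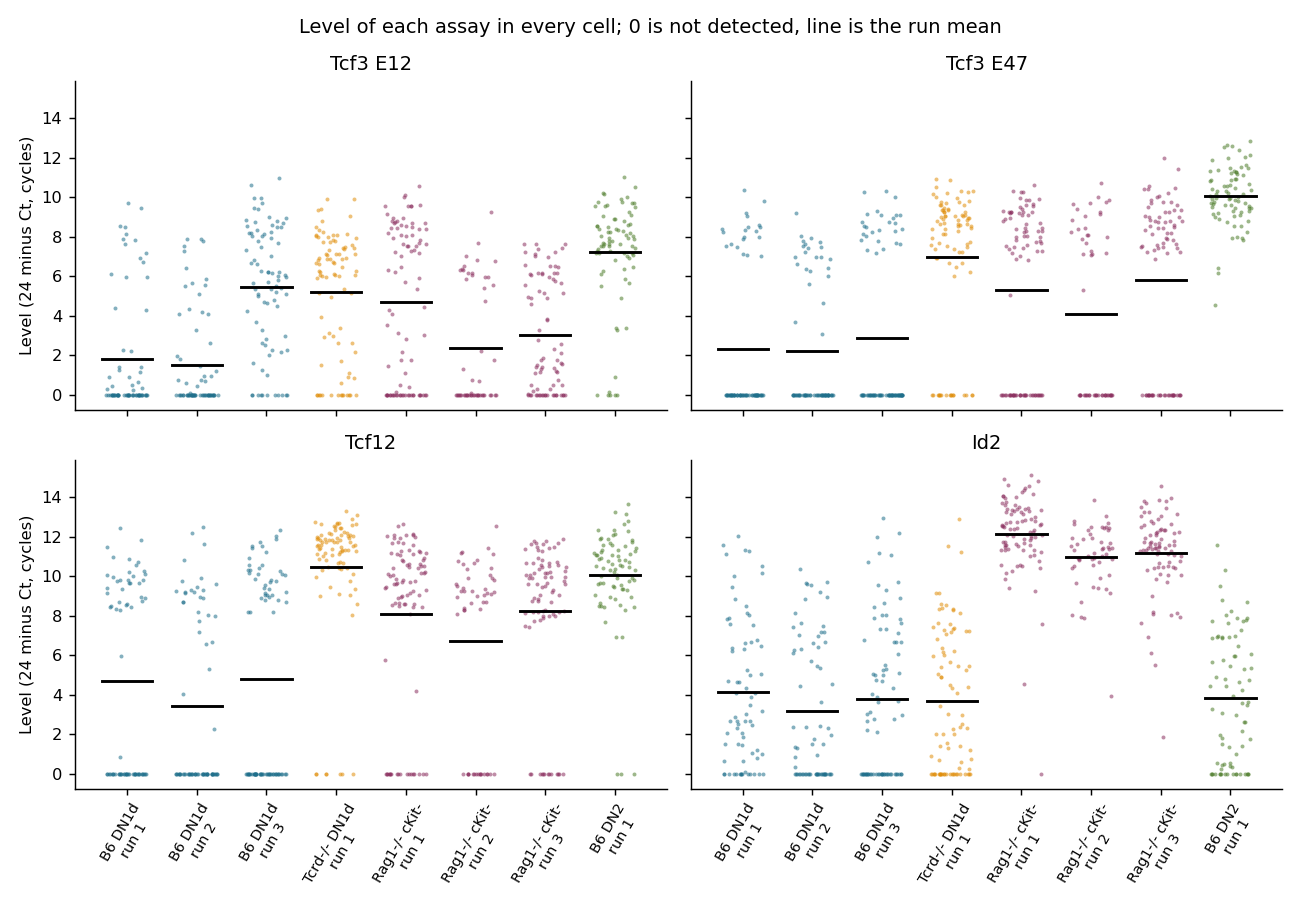
Level (24 minus Ct, in cycles) of each assay in every cell, by run, where 0 means not detected and the black line is the run mean over all cells. E47 and Tcf12 form a detected cloud apart from 0 whose share of cells differs between groups, while Id2 in the Rag1-/- runs lies around means of 12.17, 10.97 and 11.19 cycles, above the 3.19 to 4.16 of the other runs.

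The E proteins and Id2 were then read in the same cell. A cell with E47 or Tcf12 and without Id2 was found in 9 of 72, 19 of 70 and 17 of 81 cells of B6 DN1d runs 1, 2 and 3 (20.2% ± 7.35, SD, n = 3), in 25.6% of Tcrd-/- cells and in 21.8% of DN2 cells. In the Rag1-/- runs it was found in 0 of 89, 0 of 52 and 0 of 82 cells, with exact 95% upper bounds of 4.06%, 6.85% and 4.4%. Every Rag1-/- cell with E47 or Tcf12 thus had Id2 beside it, while each other run held cells of both kinds. Since Id2 was detected in 222 of 223 Rag1-/- cells, its wide detection nearly fixed this absence, which shows no pairing within cells.

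The opposite state, Id2 without E47 and Tcf12, made up 37.5%, 28.6% and 24.7% of cells in B6 DN1d runs 1, 2 and 3, 5.62%, 21.2% and 8.54% in Rag1-/- runs, 3.49% of Tcrd-/- cells and 0% of DN2 cells (0 of 78). The B6 DN1d runs were all above the other groups. E12 did not enter these states, and in B6 DN1d run 3 only 7.41% of cells had none of the 3 E protein assays. Cells with neither were 14.1% ± 7.02 of B6 DN1d cells (SD, n = 3) and 1 of 223 Rag1-/- cells. All 3 E protein assays together were detected in 13.9%, 8.57% and 24.7% of cells in B6 DN1d runs 1, 2 and 3, in 34.8% ± 12.0 of Rag1-/- cells (SD, n = 3), in 68.6% of Tcrd-/- cells and in 89.7% of DN2 cells. In the DN2 run, no cell had fewer than 2 of the 3. These shares were not tested, since they follow from the detection of the single members.

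**Figure D3:**
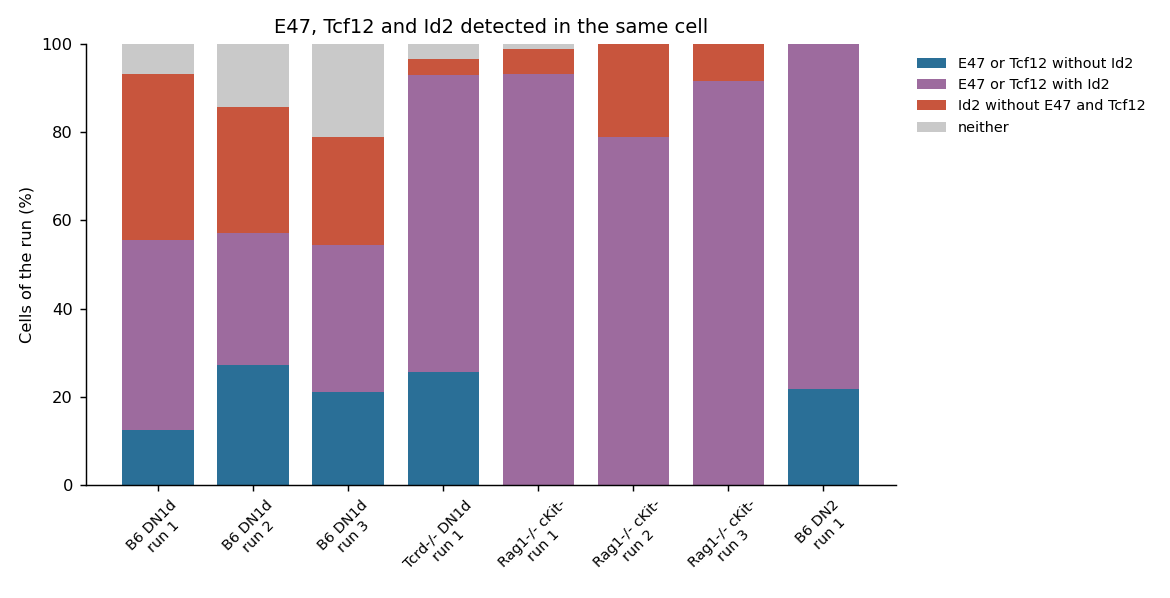
Share of cells of each run (%) by which of E47, Tcf12 and Id2 were detected together. The state of E47 or Tcf12 without Id2 is absent from the 3 Rag1-/- runs, in which 222 of 223 cells had Id2. The state of Id2 without E47 and Tcf12 takes 24.7% to 37.5% of the B6 DN1d runs.

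The 2 forms of Tcf3 were not found in the same B6 DN1d cells more often than the run spread allowed. E47 was detected in 40% of the E12-positive and 19% of the E12-negative cells of run 1, in 34.5% and 31.7% in run 2, and in 34.3% and 27.3% in run 3. The shares were higher with E12 in each run, by little in runs 2 and 3. The natural log odds ratio of co-detection averaged 0.46 ± 0.40 (SE) over the 3 runs (limma, adjusted p = 0.604 over 40 partners of E12). In DN2 cells, where both forms were nearly always detected, their levels had a Spearman correlation of 0.49 over 73 cells, which is a description across cells of 1 run.

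E47 and Tcf12 were found together. E47 was detected in 44.4% of cells with Tcf12 and in 11.1% of those without it in B6 DN1d run 1, in 39.3% and 28.6% in run 2, and in 56.4% and 11.9% in run 3. All 3 runs went the same way, with run 2 the weakest. The mean log odds ratio was 1.47 ± 0.40 (SE) (limma, adjusted p = 0.0181 over the partners of E47). It was 1.32 without run 1 (adjusted p = 0.125), 1.12 without run 3 (adjusted p = 0.107) and 1.16 without the cells that had Csf2rb2 or Gp49a (adjusted p = 0.0572), and so did not pass in those settings. In Rag1-/- runs 1, 2 and 3 the ratio was -0.23, 0.95 and 0.96 and did not pass (adjusted p = 0.368), and the difference from B6 DN1d, -0.91 ± 0.56, did not pass either (adjusted p = 0.27). In the DN2 run their levels had a Spearman correlation of 0.66 over 75 cells, against 0.39 over 68 Tcrd-/- cells.

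Id2 was not linked to any E protein assay in B6 DN1d cells beyond the spread between runs. The log odds ratio of Id2 with Tcf12 was -0.68, -1.06 and 0.47 in runs 1, 2 and 3, that with E47 was -0.10, -0.38 and 0.29, and that with E12 was -0.41, 0.24 and 0.17. The sign of each pair differed between runs. The means were -0.42 ± 0.37 (SE), -0.06 ± 0.33 and -0.00 ± 0.34 (limma, adjusted p = 0.597, 0.936 and 0.998 over 40 partners of Id2). The runs were too few to bound these ratios tightly. In Rag1-/- cells Id2 was detected too widely for a test of co-detection, but its level in cells that had both had a Spearman correlation of 0.35, 0.31 and 0.45 with E47 and 0.42, 0.15 and 0.37 with Tcf12 in runs 1, 2 and 3. These are positive in all 3 runs and describe cells that share a run and its depth.

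Over the panel, Tcf12 had the most partners in B6 DN1d cells. Of 40 other assays detected in 5% to 95% of the cells, 19 were found more often and 5 less often with Tcf12, so that 60.0% were called. The median log odds ratio over the 40 was 0.93 for Tcf12, against 0.62 for E47, 0.31 for E12 and -0.12 for Id2. The typical assay was thus also found more often with Tcf12. Each ratio was tested against 0 and not against that median. The highest ratios were those of Gzma, a granule protease (2.41 ± 0.44 (SE), limma, adjusted p = 0.000228), Myb, a progenitor transcription factor (2.34 ± 0.47, adjusted p = 0.000297), Tox, an HMG box factor of T and innate lymphoid development (2.19 ± 0.47, adjusted p = 0.000445), and Blk, a Src family kinase of interleukin 17 producing gamma delta cells (2.05 ± 0.46, adjusted p = 0.000594). Tcf12 was detected in 90.9%, 75% and 100% of Gzma-positive cells of runs 1, 2 and 3, against 42.6%, 29.6% and 42.5% of the others. The lowest ratios were those of Csf2rb2, a cytokine receptor subunit (-2.43 ± 0.49, adjusted p = 0.000297), Cdh1, E-cadherin (-2.26 ± 0.49, adjusted p = 0.000445), and Gp49a, a receptor of myeloid and mast cells (-1.94 ± 0.44, adjusted p = 0.000616). Without single runs the number called was 18 to 24, and stratified by the number of other assays it was 16.

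E47 had fewer partners past the threshold, and its ratios were not tested against those of Tcf12. In B6 DN1d cells 9 assays were found more often and 3 less often with it, 30.0% of 40. Apart from Tcf12, the highest were Tcf7, a factor of early T cells (1.66 ± 0.35 (SE), limma, adjusted p = 0.00504), Tox (1.47 ± 0.33, adjusted p = 0.00764), Smo, a Hedgehog signal transducer (1.26 ± 0.43, adjusted p = 0.0453), and Lef1, the relative of Tcf7 (1.25 ± 0.35, adjusted p = 0.0181). The lowest were Csf2rb2 (-2.16 ± 0.44, adjusted p = 0.00504), Gp49a (-2.05 ± 0.51, adjusted p = 0.012) and Cdh1 (-2.02 ± 0.42, adjusted p = 0.00504). The 12 calls fell to 0 without run 1 or without run 3 and to 6 without run 2. E12 had no partner past the threshold, 0.00% of 40, with 4 at an unadjusted p under 0.05.

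**Figure D4:**
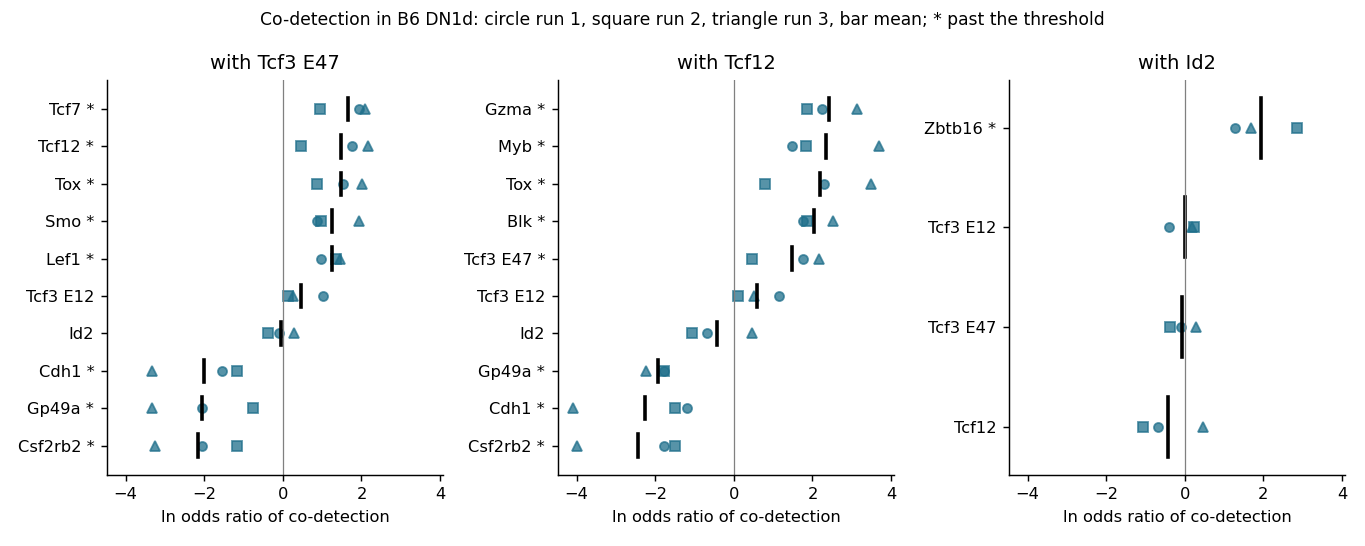
Natural log odds ratio of co-detection in B6 DN1d cells with E47, Tcf12 and Id2, 1 point per run, for the named partners and the other members, where an asterisk marks an adjusted p below 0.05. The links of E47 with Tcf7, Tox and Tcf12 lie above 0 in all 3 runs, those with Csf2rb2, Gp49a and Cdh1 below 0 in all 3, and those of Id2 with the E proteins on both sides of 0.

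Csf2rb2 and Gp49a, 2 markers of the myeloid and dendritic list, were among the lowest ratios of both E47 and Tcf12. Cells with either were then set apart. Csf2rb2 or Gp49a was detected in 9, 12 and 21 cells of B6 DN1d runs 1, 2 and 3, in 8 Tcrd-/- cells, in 1, 0 and 2 Rag1-/- cells and in 1 DN2 cell. Of the 4 markers of that list in the panel (Spi1, Csf1r, Csf2rb2 and Gp49a), the B6 DN1d runs had 0.25 to 0.556 per cell, the Tcrd-/- run 0.198, the Rag1-/- runs 0 to 0.0488 and the DN2 run 0.846, where Spi1 alone was in 80.8% of cells. In B6 DN1d cells Spi1 was in 6.95% ± 4.9 (SD, n = 3 runs). Csf1r, the defining receptor of macrophages, was in 0 cells of all groups but DN2, and Csf2rb2 in 0 DN2 cells. As the low ratios of Csf2rb2 and Gp49a imply, few of the B6 DN1d cells with either had E47 or Tcf12. E47 was detected in 0 of 9, 2 of 12 and 0 of 21 of these cells, and Tcf12 in 1, 1 and 2. Id2 was detected in 88.9%, 58.3% and 57.1% of them, close to the 79.4%, 58.6% and 58.3% of the other cells.

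With these cells left out, a setting chosen after the data were seen, Tcf12 had 15 called partners, all 15 among the 24 of all cells, and E47 had 0. The group differences in E47 and Tcf12 detection against B6 DN1d still passed in all 3 comparisons. The level differences of Rag1-/- cells did not, at 2.12 cycles for E47 (adjusted p = 0.0542) and 2.53 for Tcf12 (adjusted p = 0.0518). Tcf12 was detected in 98.7% of the remaining Tcrd-/- cells and 54.6% ± 7.60 (SD, n = 3) of the remaining B6 DN1d cells, and the difference between Tcrd-/- and Rag1-/- cells then passed for Tcf12 (2.67, adjusted p = 0.00028) and E47 (1.29, adjusted p = 0.0296).

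Id2 had 1 partner past the threshold in B6 DN1d cells, 2.50% of 40. It was Zbtb16, which encodes PLZF, a transcription factor of innate-like lymphocytes (1.94 ± 0.37 (SE), limma, adjusted p = 0.00426). Id2 was detected in 6 of 6, 9 of 9 and 3 of 3 Zbtb16-positive cells of runs 1, 2 and 3, against 78.8%, 52.5% and 56.4% of the others. All 18 such cells had Id2, as did 8 of 8 in the Tcrd-/- run, while in the DN2 run it was 32 of 42, with 29 of 36 among cells without Zbtb16. The call was lost without run 1 (adjusted p = 0.602) or run 2 (adjusted p = 0.122), and without the cells that had Csf2rb2 or Gp49a (adjusted p = 0.0686).

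In Rag1-/- cells the E proteins had few links. Tcf12 had 1 called partner of 30 (3.33%), Il7r, at 2.00 ± 0.45 (SE, limma, adjusted p = 0.0028), which is named because it was the single call and which was lost without Rag1-/- run 2. E47 had 0 (0.00%) with 5 at an unadjusted p under 0.05, and E12 had 0 (0.00%) with 3. The difference of the log odds ratio between Rag1-/- and B6 DN1d cells passed for 31% of 29 partners of Tcf12 and 6.90% of 29 partners of E47. Of the 2 for E47, 1 was Cdh1. E47 was detected in 70.7%, 73.7% and 81% of Cdh1-positive Rag1-/- cells of runs 1, 2 and 3 against 54.2%, 33.3% and 60.7% of the others, whereas in B6 DN1d runs it was detected in 0 of 5, 1 of 9 and 0 of 18 Cdh1-positive cells. Without cells that had Csf2rb2 or Gp49a, the B6 DN1d ratio of Cdh1 was -0.06 with E47 and -0.75 with Tcf12, and neither passed (adjusted p = 0.909 and 0.217).

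The B6 DN1d cells with E47 or Tcf12 but no Id2 and those with Id2 but neither of them were then compared for other assays. Cells with E47 or Tcf12 and no Id2 had Tcf7 in 77.8%, 84.2% and 94.1% and Vg2-Jg1 in 77.8%, 47.4% and 82.4% in runs 1, 2 and 3, and Csf2rb2 or Gp49a in none. Cells with Id2 and neither E47 nor Tcf12 had Tcf7 in 44.4%, 45% and 25.0%, Vg2-Jg1 in 33.3%, 15.0% and 15.0%, and Csf2rb2 or Gp49a in 25.9%, 20.0% and 50%. In each of these measures the ranges of the 2 states did not overlap. The states are defined by E47 and Tcf12, and Tcf7, Csf2rb2 and Gp49a were already partners of E47 in these cells. Tcf12 was also detected in 69.3% ± 8.36 (SD, n = 3 runs) of B6 DN1d cells with Vg2-Jg1 and in 29.2% ± 5.87 of those without it. For all these assays, Vg2-Jg1 included, the gap therefore restates links with the members that define the states. Sox13 and Tox did not overlap between the states either. Not all of the 44 other assays were read in this way. Cells with both had Tcf7 in 80.6%, 61.9% and 92.6% and Vg2-Jg1 in 51.6%, 28.6% and 70.4%, overlapping the cells without Id2. Cells with none of E47, Tcf12 and Id2 overlapped those with Id2 but not E47 or Tcf12, with Tcf7 in 20.0%, 30.0% and 17.6%. The cells with Id2 and neither E47 nor Tcf12, some of which had E12, also had fewer other assays. Their median was 14 of 44 in each run, against 20 to 23 in the cells with E47 or Tcf12 and no Id2. How far this number sets the difference was not tested.

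The number of other assays detected moved with E47 and Tcf12. Among B6 DN1d cells with at most 14 other assays, E47 was detected in 11.7% and Tcf12 in 15.6% of 77 cells, and among those with 25 or more, in 67.7% and 93.5% of 31 cells. Id2 was detected in 67.5% and 54.8% of the same cells. In Rag1-/- cells the shares for E47 were 8.33% of 12 and 68.4% of 19 cells. Shares of E47 and Tcf12 were higher in each richer bin in both groups, 2 of whose Rag1-/- bins held under 20 cells, except that E47 in B6 DN1d cells with 20 to 24 other assays was at 23.1%, below the 44.4% of the bin before it.

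**Figure D5:**
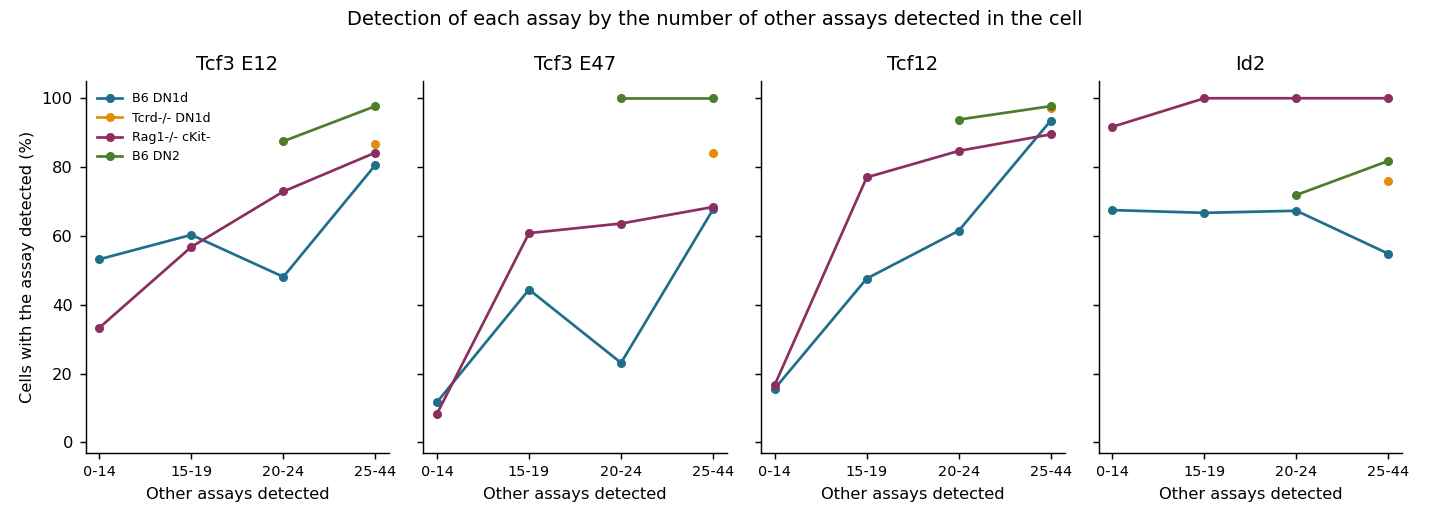
Share of cells (%) with each member detected, by the number of the 44 other assays detected in the cell and by group, for bins of at least 10 cells. E47 and Tcf12 are low in the sparsest bin and high in the richest, and Id2 is at 91.7% or more in every Rag1-/- bin.

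Other genes of the pathway were few in the panel, and their lists were read by counts, with values for some of the genes. Bhlhe40, another basic helix-loop-helix gene, was detected in 19.4% ± 5.64 of B6 DN1d cells and 59.7% ± 10.0 of Rag1-/- cells (SD, n = 3), and rose there by 1.81 ± 0.35 (SE) on the logit scale (limma, adjusted p = 0.000167). It did not pass in DN2 (1.11, adjusted p = 0.0546) or Tcrd-/- cells (-0.68, adjusted p = 0.271). Of 7 genes linked to E proteins in T progenitors, 5 rose in DN2, 4 in Tcrd-/- and 4 in Rag1-/- cells and none fell, with median differences of 4.63, 1.90 and 0.92 beside 0.99, 1.34 and 0.41 over all assays, of which 66%, 55.3% and 59.6% were called in either direction. The counts are near those shares. In DN2 cells Notch1, the receptor that starts the T programme, was at 100% against 33.9% ± 3.59 in B6 DN1d cells, and Rag2, a recombinase subunit, at 57.7% against 0.476% ± 0.825. Cdk6 was at 100% there against 37.5% ± 2.79. Gata3 and Bcl11b did not pass in DN2 cells (0.97 and 0.74, limma, adjusted p = 0.164 and 0.355). In Rag1-/- cells Tcf7 was at 95.4% ± 3.30 against 60.5% ± 1.96.

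Of 8 genes linked to Id2 in innate lymphoid cells, 4 rose and 1 fell in DN2, 3 rose in Tcrd-/- and 5 rose in Rag1-/- cells, with median differences of 1.84, 0.87 and 1.74 beside the same 0.99, 1.34 and 0.41 and the same shares called over all assays, to which these counts too are near or below. Il7r, Gata3 and Tcf7 are on both lists. Zbtb16 was at 60.2% ± 12.2 in Rag1-/- cells and 53.8% in DN2 cells against 8.30% ± 4.58 in B6 DN1d cells, Il7r, the interleukin 7 receptor, at 93% ± 1.09 and 93.6% against 50.1% ± 3.86, and Nfil3 at 51.8% ± 11.5 in Rag1-/- cells against 9.45% ± 0.717. Zbtb16 and Il7r thus rose in DN2 cells too (limma, adjusted p = 0.00027 and 4.92e-05), in which Id2 detection did not pass the threshold. Tbx21 did not pass in DN2, Tcrd-/- or Rag1-/- cells (limma, adjusted p = 0.918, 0.828 and 0.111).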

How the data were processed

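Single cells of 4 sorted mouse thymus groups were captured on a Fluidigm C1, preamplified for 18 cycles and read by EvaGreen quantitative PCR of 30 cycles, per the labels' protocols. The authors deposited Ct values, a unit other than counts and without normalisation, for 29280 reactions, of which 50.5% stood at 24. The melt-curve use and the origin of this ceiling are not given in the sources used here, and 0 columns lacked a sample. Detection was Ct below 24 and level 24 minus Ct.

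Cells were not replicates. Each run gave 1 empirical logit of detection (0.5 added to each side), 1 mean level and 1 natural log odds ratio of co-detection per pair (0.5 added to each count). For detection and level, limma 3.58.1 in R 4.3.3 fitted all 8 runs by group (4 residual degrees of freedom). For co-detection it fitted the B6 DN1d and Rag1-/- runs, and for Id2 the B6 DN1d runs alone. Benjamini-Hochberg adjustment ran over the 47 assays with any detection, or over the partners detected in 5% to 95% of the group's cells, with a threshold of 0.05. An adjusted p of a pair of members therefore depends on which of them is the anchor. Shares have exact Clopper-Pearson 95% intervals, and these and the limits from a count of 0 (3 cells) cover counting error only. Tables used pandas 2.3.3 with numpy 2.4.6 and scipy 1.17.1, and figures matplotlib 3.10.9, under Python 3.11.15.

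On 20 simulated panels of 48 independent genes, detection in each group was compared with B6 DN1d. A logit shift of 2 was called for 91.5% (DN2), 90% (Tcrd-/-) and 99.5% (Rag1-/-) of changed genes. Of unchanged genes, 1.05%, 1.32% and 1.71% were called. Whether these rates hold for the measured runs, where assays were co-detected and differed in spread, was not tested. E12 ranged over 45 percentage points in the B6 DN1d runs, against a median of 8.18 over the assays. Rules named the 4 members in every comparison, up to 5 partners with the highest and 3 with the lowest ratio per member in B6 DN1d, Gapdh and at most 6 list genes per comparison. A further gene that these rules name is not reported here, though counts include it. The members and lists were chosen with earlier results of these data known. Alternatives were a stricter Ct, another added constant, a window or minimum of assays per cell, the median, detected cells only, subtraction of Gapdh, stratified odds ratios, only the runs of 2 groups and each run left out. Ct below 20, and the removal of cells with Csf2rb2 or Gp49a, were added after seeing the data.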

Additional observations from a re-analysis of the deposited data

Results flagged for a closer look

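The log odds ratio of co-detection differed between Rag1-/- cKit- and B6 DN1d cells, by a limma test of the difference itself, for 5 of the named pairs, with Benjamini-Hochberg adjustment over 29 partners of each member. For E47 with Cdh1 the difference, Rag1-/- minus B6 DN1d, was 3.11 ± 0.59 (SE, adjusted p = 0.00467). For Tcf12 with Cdh1 it was 2.89 ± 0.70 (adjusted p = 0.00684). Cdh1 was detected in only 5, 9 and 18 cells of B6 DN1d runs 1, 2 and 3. Without cells that had Csf2rb2 or Gp49a, its B6 DN1d ratios did not pass, as given above. In Rag1-/- cells its ratios were 1.09 ± 0.42 with E47 and 0.63 ± 0.49 with Tcf12. Neither passed (limma, adjusted p = 0.178 and 0.431). Tcf12 was less linked in Rag1-/- cells to Myb, by -2.14 ± 0.67 (adjusted p = 0.0151), to Gzma, by -2.04 ± 0.63 (adjusted p = 0.0151), and to Blk, by -1.82 ± 0.65 (adjusted p = 0.0322). Myb was detected in 4, 4 and 6 cells of Rag1-/- runs 1, 2 and 3, so its ratio there rests on few cells. Blk was detected in 11, 3 and 19 cells of these runs, and its ratio with Tcf12 there was -0.98, 1.24 and 0.43, with no common sign.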

How the results depend on the processing

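Of 292 alternatives for the 24 detection differences, 274 kept direction and side of the threshold, as did 107 of 136 for the 12 level differences and 171 of 230 for the 39 co-detection results. With Ct below 22 or below 20, with 1 added to each side, without cells of under 10 assays, and with only the runs of both groups compared, every detection result that could be computed kept its call. Without the cells that had Csf2rb2 or Gp49a, 22 of 35 co-detection, 21 of 24 detection and 9 of 12 level results kept theirs. The window of 20 to 30 other assays kept 20 of 24 detection and 8 of 12 level results, detected cells only 4 of 12 level results, and the stratified ratios 29 of 39 co-detection results. The cause was not tested.

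Over cells with 20 to 30 other assays, the detection difference was -0.08 for Id2 (Tcrd-/- minus B6 DN1d), 0.97 for E47 and 0.81 for Tcf12 (Rag1-/- minus B6 DN1d) and 1.35 for Tcf12 (DN2 minus Rag1-/-), and the level difference from B6 DN1d was 3.32, 3.97 and 1.66 cycles for Tcf12 in DN2, Tcrd-/- and Rag1-/- cells and 0.36 for Id2 in Tcrd-/- cells. Without cells that had Csf2rb2 or Gp49a, detection differed by 0.89 for Tcf12 (Tcrd-/- minus DN2) and by 1.29 for E47 and 2.67 for Tcf12 (Tcrd-/- minus Rag1-/-), level by 0.07 for Id2 (Tcrd-/-) and 2.12 and 2.53 for E47 and Tcf12 (Rag1-/-), and the log odds ratio in B6 DN1d was 0.10 for E12 with Id2 and 1.16 for E47 with Tcf12. In detected cells only, level differences from B6 DN1d in DN2, Tcrd-/- and Rag1-/- cells were 2.24, 0.88 and 0.77 cycles for E47 and 1.18, 2.11 and 0.56 for Tcf12, and in DN2 cells 2.95 for E12 and -0.83 for Id2. With medians they were 10.03, 8.58 and 5.10 for E47 and 0.20 for Id2 in Tcrd-/- cells. With Gapdh subtracted they were -0.42 for Id2 in DN2 and -0.11 for E12 in Rag1-/- cells. Stratified by other assays, the log odds ratio was 0.02 for E12 with Id2 in B6 DN1d, and -0.33 and -0.17 for Tcf12 with Myb and Blk in Rag1-/- cells.

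With each run left out in turn, detection differences ranged over 1.85 to 2.93 (E12, DN2 minus B6 DN1d), 0.87 to 1.95 (E12, Tcrd-/- minus B6 DN1d), -0.15 to 0.93 (E12, Rag1-/- minus B6 DN1d), 0.98 to 1.34 (E47, Rag1-/- minus B6 DN1d), 1.62 to 2.26 (E12, DN2 minus Rag1-/-), 0.87 to 1.29 (Tcf12, Tcrd-/- minus Rag1-/-). Level differences ranged over 3.60 to 5.56 (E12, DN2 minus B6 DN1d), -0.16 to 0.33 (Id2, DN2 minus B6 DN1d), 1.61 to 3.57 (E12, Tcrd-/- minus B6 DN1d), -0.27 to 0.22 (Id2, Tcrd-/- minus B6 DN1d), -0.26 to 1.70 (E12, Rag1-/- minus B6 DN1d). Log odds ratios ranged over -0.12 to 0.21 (E12 with Id2, B6 DN1d), 1.12 to 1.97 (E47 with Tcf12, B6 DN1d), -0.45 to 0.24 (E47 with Lef1, Rag1-/-), -0.24 to 0.10 (E47 with Id2, B6 DN1d), -0.22 to 0.55 (Tcf12 with Myb, Rag1-/-), -0.28 to 0.83 (Tcf12 with Blk, Rag1-/-). The number of called partners ranged over 0 to 2 (E12, Rag1-/-), 0 to 6 (E47, B6 DN1d), 0 to 2 (Tcf12, Rag1-/-), 0 to 1 (Id2, B6 DN1d).

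Partners called in B6 DN1d numbered 2 for E12 at Ct below 22 and 1 when stratified, 0 for E47 without the Csf2rb2 or Gp49a cells and 7 stratified, 15 for Tcf12 without those cells, and for Id2 2 at Ct below 22, 0 without those cells and 2 stratified. In Rag1-/- cells E12 had 1 at each of these 3 settings and Tcf12 3 stratified. No paired analysis was possible because the run numbers only name runs in the order of deposit and no label pairs a run of 1 group with a run of another. With 3 or 1 runs a group, differences within the intervals given could not be seen.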
